A study of Homo sapiens with 24 samples.

Results

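The response to hairpin A against CHD1 was compared between the PM and PE lines of MCF10A, as the log2 effect of hairpin A in PM minus its log2 effect in PE, called the line difference here. MCF10A is an established line of human breast epithelial cells that does not form tumours. Series text names PM as MYC-transformed and PE as not transformed, and does not spell out the letters. The 4 groups were PM with hairpin A, PM with the GFP hairpin, PE with hairpin A and PE with the GFP hairpin, with 4 libraries each, so 16 of the 24 libraries enter the difference. The other 8 libraries carry hairpin B against CHD1 in PM and in PE, and are set beside hairpin A below. All groups received doxycycline at 50 ng/ml for 72 h, the GFP groups included, in a medium that per the labels holds EGF, insulin, hydrocortisone, cholera toxin and horse serum. Each line is a single line, so MYC cannot be told apart here from anything else in which PM and PE differ. The labels call the 4 libraries of a group biological replicates without saying what separates them, and p-values therefore measure the spread between these libraries.

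CHD1 is an ATPase that moves nucleosomes, binds histones methylated at active promoters, and helps RNA polymerase II through the nucleosomes behind them. MYC is a transcription factor that raises the output of growth genes such as those of ribosome assembly, and its levels bear on how much a cell transcribes. A line difference on the log2 scale can come from a change in PM, a change in PE, or changes in both, so the effect in each line is given beside it. A positive line difference means that the effect of hairpin A was higher in PM, and a negative one that it was lower in PM.

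Total counts of the 16 libraries ran from 4.14 to 93.3 M with a median of 45.8 M, and each held a count for 18380 to 24127 genes. Replicate 1 of PE with the GFP hairpin had the lowest total, and replicate 4 of PM with hairpin A had the highest share of mitochondrial counts (7.07%, against 4.67% as the lowest of the 16). These 2 libraries also deviated most from the others of their groups, with SDs over genes of 1.05 and 0.78 on the log2 scale against 0.47 to 0.67 in the rest. Keratins KRT5 and KRT18 were abundant in all 4 groups. The level (CPM, counts scaled to library size) of 7 epithelial markers was summed. In PM the sum ran from 1360 to 1440 CPM with hairpin A and 1410 to 1860 CPM with the GFP hairpin. In PE it ran from 1130 to 1900 CPM with hairpin A and 1240 to 2010 CPM with the GFP hairpin. Most of it came from KRT5, with group means of 961 to 1320 CPM, while TP63 averaged at most 0.65 CPM. KRT14, KRT17 and CDH1 averaged lower with hairpin A than with GFP in both lines, EPCAM did so in PE alone, and KRT18 averaged higher in both. The summed level of 15 immune cell markers was 42.6 to 49.8 CPM in PM with hairpin A, 54.8 to 59.9 CPM in PM with the GFP hairpin, 70.2 to 81.9 CPM in PE with hairpin A and 69 to 80 CPM in PE with the GFP hairpin, most of it from CD14 and CD68. CD68 was itself called in the line difference at -0.97 (SE 0.2, adjusted p = 0.00282), and CSF1R at 1.25 (SE 0.35, adjusted p = 0.0244), the call of CSF1R being lost without any of 4 single libraries and without the 2 that stood apart. The defining leukocyte markers PTPRC and CD3E averaged at most 0.278 CPM in any group. Of the fibroblast genes COL1A2 averaged at most 0.0328 CPM, COL1A1 5.66 to 10.1 CPM and DCN 3.25 to 51.6 CPM. FABP4, an adipocyte marker, averaged under 0.1 CPM in both PM groups, against 23.9 and 11.1 CPM in PE with hairpin A and with the GFP hairpin, and the part of these markers in the results was not tested.

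CHD1 itself (chromosome 5, 98853985 to 98929007 in GRCh38.p14) fell in both lines, and its line difference was not called. In PM, CHD1 had 30.6, 27.6, 31.7 and 34.3 CPM with hairpin A and 84.9, 95.3, 86.3 and 93.4 CPM with GFP. In PE, CHD1 had 29.3, 28.5, 28.2 and 30.8 CPM with hairpin A and 86.8, 76.5, 74.2 and 77.6 CPM with GFP. All libraries with hairpin A lay below all GFP libraries of their line, and the 2 lines overlapped under hairpin A. The log2 change was -1.54 (SE 0.1, adjusted p = 5.06e-14) in PM and -1.42 (SE 0.1, adjusted p = 9.88e-13) in PE, and the line difference was -0.11 (SE 0.14, adjusted p = 0.737). Every PM library of these groups lay above every PE library for MYC, and hairpin A changed it in neither line by the test. In PM, MYC had 569, 587, 577 and 524 CPM with hairpin A and 505, 550, 530 and 488 CPM with GFP. In PE, MYC had 258, 263, 246 and 264 CPM with hairpin A and 249, 285, 284 and 283 CPM with GFP. The line difference of MYC was 0.22 (SE 0.09, adjusted p = 0.137), which did not pass the threshold of 0.05. It was 0.25 and passed when libraries were scaled by DESeq2 size factors, and it passed under several other alternatives given below.

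Of 20820 genes tested, 1386 had a line difference past the threshold, which is 6.66%. The effect of hairpin A was higher in PM for 575 genes (2.76%) and lower in PM for 811 genes (3.9%). Without adjustment, 4041 genes had p under 0.05, with 8.66% of all genes higher in PM and 10.7% lower. Scaling by library size alone gave 838 genes higher and 646 lower in PM, so the balance of directions depends on the scaling. Leaving out both libraries named above gave 670 higher and 756 lower. For comparison, hairpin A against GFP was called higher for 2799 genes (13.4%) and lower for 2979 genes (14.3%) in PM, and higher for 2265 genes (10.9%) and lower for 1943 genes (9.33%) in PE. These 2 effects make up the line difference, so they describe it and do not test it. The shares of all genes given here are the background for the counts of list members below.

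Most called genes moved in 1 line alone by the test. Among the 575 genes with a higher effect in PM, 262 rose in PM and were not called in PE, and 191 fell in PE and were not called in PM. Another 43 rose in PM and fell in PE, 46 rose in both lines, 13 fell in both, and 20 were called in neither line. Among the 811 genes with a lower effect in PM, 415 fell in PM and were not called in PE, and 187 rose in PE and were not called in PM. A further 106 fell in both lines, 66 fell in PM and rose in PE, 20 rose in both, and 17 were called in neither. The absolute effect was larger in PM for 898 of the 1386 genes and larger in PE for 488. The median log2 effect of the genes higher in PM was 0.47 in PM and -0.28 in PE, and that of the genes lower in PM was -0.47 in PM and 0.14 in PE. For 1344 of the 1386 genes the difference of differences had the same sign in CPM as on the log2 scale. CXCL1, CXCL3, CFB, EREG and TIMP1, described below, were among the exceptions, since their mean CPM fell by more in PE than in PM. The same held for SERPINB3, IL13RA2 and SAMSN1. A line difference of at least 2-fold was fitted for 366 of the called genes, 195 higher and 171 lower in PM.

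**Figure D1:**
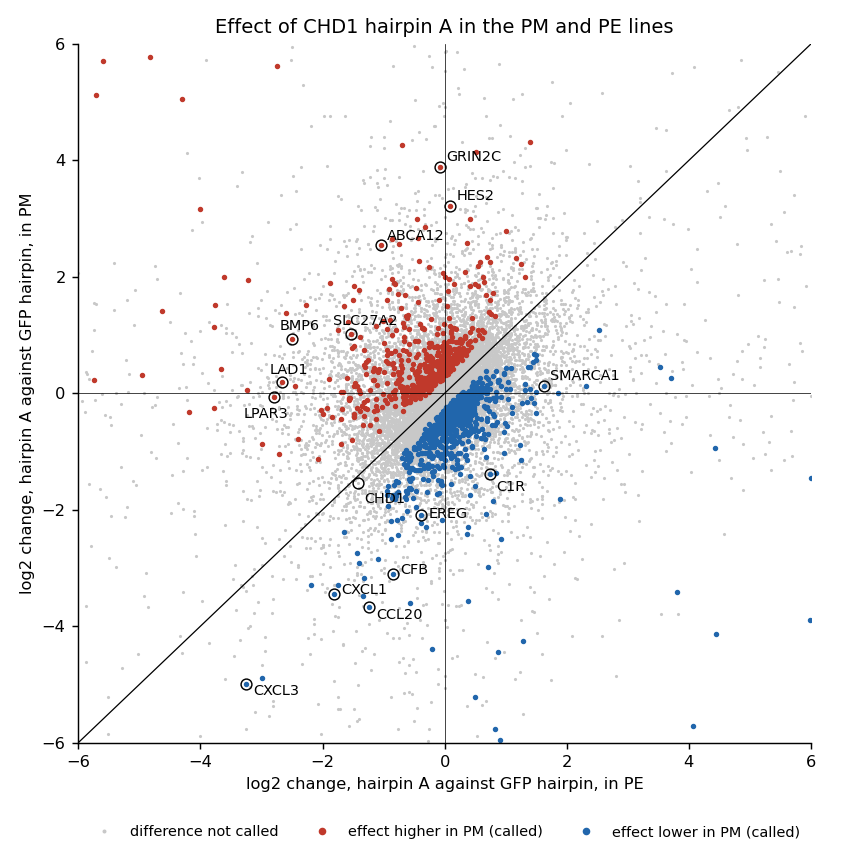
Log2 change of each gene under hairpin A against the GFP hairpin in PE (x axis) and in PM (y axis). Red points are the genes called with a higher effect in PM and blue points those called with a lower effect, the line marks equal effects, and 99 genes lie beyond the axes. CHD1 sits close to the line of equal effects, the chemokine genes CXCL1, CXCL3 and CCL20 fell in both lines and further in PM, and LAD1 and LPAR3 fell in PE alone.

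Chemokine and other NF-kB target genes fell in both lines, and several fell further in PM on the log2 scale. NF-kB is a family of transcription factors that is released by inflammatory signals and switches on chemokines, cytokines and its own inhibitors. Of 27 tested members of the list of NF-kB targets and chemokines, 21 fell under hairpin A in PM and 17 in PE. The shares of all genes that fell were 14.3% and 9.33%. In the line difference 10 were lower in PM and none higher, against 3.9% and 2.76% of all genes, and at an unadjusted p under 0.05 the counts were 15 and 0, against 10.7% and 8.66% of all genes. By the DESeq2 Wald test 11 were lower and by limma-voom 7, with none higher by either. The median line difference of the list was -0.74, against -0.018 over all genes. The 10 were CCL20, CXCL1, CXCL2, CXCL3, CXCL8, IL1A, CSF3, TNFAIP3, TNIP1 and NFKBIA.

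The promoters of the chemokine genes are shown because the 4 chemokine genes described next all hold a motif of NF-kB there. The stretches are the 150 bases before the start site in RefSeq GRCh38.p14, 5′ to 3′ on the gene's strand, at chr2:227813692-227813841 (plus strand) for CCL20, chr4:73869243-73869392 (plus) for CXCL1, chr4:74099196-74099345 (minus) for CXCL2 and chr4:74038690-74038839 (minus) for CXCL3. Capitals mark matches to the kappaB motif (GGG, any 2 bases, then TTTCC) or to GGAATTTCC on either strand, 2 motifs that overlap in 1 run of bases in the 3 CXCL genes.
CCL20: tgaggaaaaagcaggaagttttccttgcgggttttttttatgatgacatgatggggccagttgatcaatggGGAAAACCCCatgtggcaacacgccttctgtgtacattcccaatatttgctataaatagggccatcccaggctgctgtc
CXCL1: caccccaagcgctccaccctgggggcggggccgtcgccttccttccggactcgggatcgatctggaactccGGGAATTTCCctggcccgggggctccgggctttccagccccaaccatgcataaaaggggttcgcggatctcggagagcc
CXCL2: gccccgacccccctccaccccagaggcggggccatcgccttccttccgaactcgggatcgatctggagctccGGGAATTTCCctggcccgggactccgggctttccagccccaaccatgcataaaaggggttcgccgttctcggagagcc
CXCL3: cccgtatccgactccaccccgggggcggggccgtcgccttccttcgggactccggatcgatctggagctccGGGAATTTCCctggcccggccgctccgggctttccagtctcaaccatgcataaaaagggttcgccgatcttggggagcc
In CXCL1, CXCL2 and CXCL3 the run GGGAATTTCC begins 79, 78 and 79 bases before the start site. In CCL20 the match GGAAAACCCC reads on the other strand and begins 79 bases before it. Over the RefSeq windows from 250 bases before to 50 after the start site, the kappaB motif occurs on either strand in 2.07% of 13850 tested genes with a window, in 2.66% of 414 genes called higher in PM and in 4.46% of 650 genes called lower in PM. Of the 9 NF-kB targets called lower in PM that have a window, 6 hold it, and so do CXCL5, IL6, BIRC3 and NFKB1, members of the list that were not called. The list was assembled from targets of NF-kB, so these counts say nothing particular to its called members. GGAATTTCC occurs in 0.469% of all windows, 0.242% of those called higher and 1.54% of those called lower. The E-box CACGTG, a motif of MYC with its partner MAX, occurs in 9.44% of all windows, 12.6% of those called higher and 7.23% of those called lower. TGACTCA, the AP-1 motif, was found in 4.01% of all windows, 5.07% of those called higher and 5.54% of those called lower, and the TATA-box letters TATAAA in 6.91%, 7.73% and 9.23%. These are letters in a window and not measured binding.

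CCL20, a chemokine that attracts lymphocytes and dendritic cells, had the largest negative difference among the called members. In PM, CCL20 had 28.1, 36, 26.6 and 17 CPM with hairpin A and 336, 428, 371 and 239 CPM with GFP. In PE, CCL20 had 235, 230, 254 and 145 CPM with hairpin A and 433, 542, 599 and 462 CPM with GFP. PM with hairpin A lay below the other 3 groups, of which PM with GFP and PE with hairpin A overlapped. The log2 change was -3.67 (SE 0.26, adjusted p = 2.49e-09) in PM and -1.24 (SE 0.23, adjusted p = 0.000684) in PE, and the line difference was -2.43 (SE 0.33, adjusted p = 0.00016). CXCL1 encodes a neutrophil chemokine. In PM, CXCL1 had 39.6, 44.9, 34.3 and 23.3 CPM with hairpin A and 378, 415, 445 and 301 CPM with GFP. In PE, CXCL1 had 335, 351, 385 and 229 CPM with hairpin A and 1040, 1170, 1390 and 950 CPM with GFP. Every library with hairpin A lay below every GFP library of its line, and the line difference was -1.62 (SE 0.31, adjusted p = 0.00278). CXCL2 and CXCL3 are its close relatives and lie beside it on chromosome 4. In PM, CXCL2 had 14.6, 16, 11.1 and 6.81 CPM with hairpin A and 126, 129, 105 and 80.6 CPM with GFP. In PE, CXCL2 had 70, 98.1, 52 and 41.4 CPM with hairpin A and 162, 196, 155 and 141 CPM with GFP. The groups of each line did not overlap, and the line difference of CXCL2 was -1.86 (SE 0.43, adjusted p = 0.0121). In PM, CXCL3 had 5.21, 5.95, 3.59 and 1.89 CPM with hairpin A and 120, 180, 142 and 86.2 CPM with GFP. In PE, CXCL3 had 25, 31.7, 21.4 and 15.6 CPM with hairpin A and 223, 253, 246 and 168 CPM with GFP. Here the GFP libraries of the 2 lines overlapped while the hairpin A libraries did not, and the line difference was -1.74 (SE 0.45, adjusted p = 0.0235). That call was lost, with adjusted p up to 0.0811, by limma-voom, without the 2 libraries that stood apart, and when PE with hairpin A replicate 2, PM with hairpin A replicate 3 or PM with GFP replicate 2 was left out. NFKBIA, which encodes the inhibitor that holds NF-kB in the cytoplasm, averaged 112 ± 4.7 and 214 ± 19.9 CPM in PM with hairpin A and with GFP, and 199 ± 14 and 282 ± 23.6 CPM in PE with hairpin A and with GFP (SD, n = 4 each). Its line difference was -0.43 (SE 0.09, adjusted p = 0.00287). The subunit gene NFKB1 had a line difference of 0.01 (adjusted p = 0.973).

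**Figure D2:**
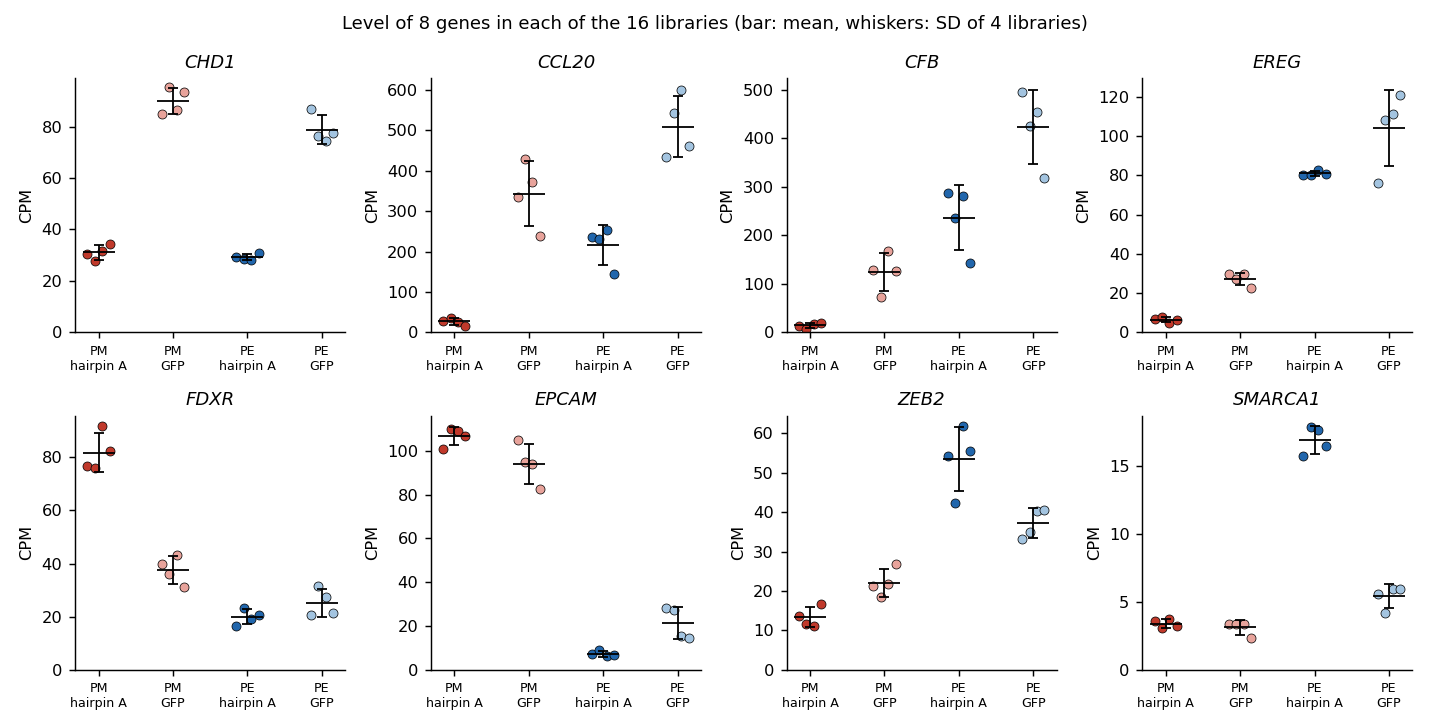
CPM of 8 genes (y axes, linear, from 0) in the 16 libraries, by group: PM with hairpin A, PM with GFP, PE with hairpin A and PE with GFP. Points are libraries, the long bar is the mean and the whiskers the SD of 4 libraries. CCL20, CFB and EREG are lowest in PM with hairpin A, EPCAM is lower with hairpin A than with GFP in PE but not in PM, and SMARCA1 is high only in PE with hairpin A among these 4 groups.

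Outside the chemokine list, CFB, C1R, SOCS3 and CEBPB also had negative line differences, and no list covers complement or the acute-phase response. CFB encodes complement factor B, which drives the alternative pathway. In PM, CFB had 12.6, 6.81, 18 and 19.8 CPM with hairpin A and 129, 72.9, 168 and 126 CPM with GFP. In PE, CFB had 287, 236, 281 and 142 CPM with hairpin A and 495, 425, 453 and 317 CPM with GFP. Its change was -3.11 (SE 0.36, adjusted p = 1.72e-06) in PM and -0.84 (SE 0.32, adjusted p = 0.0795) in PE, a line difference of -2.28 (SE 0.47, adjusted p = 0.00536). C1R encodes a protease that starts the classical pathway. In PM, C1R had 7.87, 4.33, 7 and 4.3 CPM with hairpin A and 17.9, 8.83, 19.8 and 15.2 CPM with GFP. In PE, C1R had 105, 103, 106 and 66.4 CPM with hairpin A and 62.7, 57.9, 61.8 and 47 CPM with GFP. It fell in PM, by 1.38 on the log2 scale, while in PE all hairpin A libraries lay above all GFP libraries with a change of 0.74 (SE 0.27, adjusted p = 0.0585). The line difference was -2.12 (SE 0.4, adjusted p = 0.00255). SOCS3 is induced by cytokines that act through STAT3 and dampens their signal. In PM, SOCS3 had 3.47, 3.05, 4.64 and 3 CPM with hairpin A and 12.8, 9.52, 15.4 and 5.63 CPM with GFP. In PE, SOCS3 had 29.4, 33.9, 26.6 and 20.9 CPM with hairpin A and 25.1, 21.1, 18.1 and 16.4 CPM with GFP. It fell in PM alone by the test, and the line difference was -2.08 (SE 0.37, adjusted p = 0.00148). CEBPB encodes a transcription factor of the acute-phase response. In PM, CEBPB had 74.9, 74.5, 77.6 and 71.4 CPM with hairpin A and 152, 126, 157 and 130 CPM with GFP. In PE, CEBPB had 151, 168, 151 and 148 CPM with hairpin A and 146, 169, 165 and 158 CPM with GFP. Its levels in PE overlapped between hairpins, those in PM did not, and the line difference was -0.87 (SE 0.1, adjusted p = 5.42e-07).

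More interferon-stimulated genes fell than rose in PM, and more rose than fell in PE. Of 34 tested members, 2 rose and 9 fell in PM, against 13.4% and 14.3% of all genes. In PE 9 rose and 3 fell, against 10.9% and 9.33% of all genes. For the line difference 9 were lower and 1 higher, against 3.9% and 2.76% of all genes. The unadjusted counts were 12 and 1, against 10.7% and 8.66% of all genes. The DESeq2 Wald test gave 10 and 1, and limma-voom 8 and 1. Among the 9 lower members by edgeR were OASL, IRF7, DDX60, STAT2, IFIT3, IFI35, OAS3 and IFITM3. Leaving out any of 5 single libraries (PE with hairpin A replicates 1 and 3, PM with hairpin A replicate 3, and PM with GFP replicates 1 and 3) left a count of 6. The median line difference of the list was -0.36. IFITM3, which blocks virus entry, averaged 256 ± 15.8 and 210 ± 16.7 CPM in PM with hairpin A and with GFP, and 345 ± 39.1 and 198 ± 15.3 CPM in PE with hairpin A and with GFP (SD, n = 4 each). It rose in both lines and by more in PE, with a line difference of -0.51 (SE 0.12, adjusted p = 0.00711). The largest difference, that of OASL (line difference -1.59, SE 0.43, adjusted p = 0.0187), lost its call without PM with hairpin A replicate 3 or PM with GFP replicate 1, with adjusted p up to 0.0635. The call of IRF7, an interferon-induced transcription factor, was lost without any of 12 single libraries and under 4 other alternatives, with adjusted p up to 0.12. USP18, which removes ISG15 from proteins and dampens the interferon receptor, went the other way with 0.97 (SE 0.22, adjusted p = 0.00431).

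Targets of p53 had the highest share of members with a higher effect in PM. These genes respond to DNA damage, and their products halt the cell cycle, repair DNA or start apoptosis. Of 29 members tested, 17 rose and 1 fell in PM, against 13.4% and 14.3% of all genes. In PE 6 rose and 7 fell, against 10.9% and 9.33% of all genes. For the line difference 16 were higher and none lower, against 2.76% and 3.9% of all genes. Without adjustment the counts were 23 and 1, against 8.66% and 10.7% of all genes. By the DESeq2 Wald test 19 were higher and by limma-voom 14, with none lower by either. Without PE with GFP replicate 2 the count was 10. The median line difference was 0.5, and 28 of the 29 had a positive value. The 16 were FDXR, BBC3, GDF15, BTG2, CDKN1A, TRIAP1, EDA2R, RRM2B, TIGAR, FAS, SESN2, SESN1, GADD45A, ZMAT3, AEN and RPS27L.

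FDXR encodes a mitochondrial reductase of steroid and iron-sulphur cluster synthesis. In PM, FDXR had 76.6, 76, 91.9 and 82.3 CPM with hairpin A and 39.7, 36.1, 43.3 and 31.3 CPM with GFP. In PE, FDXR had 16.5, 23.3, 19.2 and 20.5 CPM with hairpin A and 20.5, 31.6, 27.4 and 21.2 CPM with GFP. It rose in PM, where the hairpins did not overlap, and overlapped between them in PE. The line difference was 1.49 (SE 0.26, adjusted p = 0.00137). BBC3 encodes the apoptosis inducer PUMA. In PM, BBC3 had 13.3, 13.4, 18.7 and 14 CPM with hairpin A and 11.8, 10.6, 13.4 and 9.21 CPM with GFP. In PE, BBC3 had 4.41, 4.81, 4.24 and 5.28 CPM with hairpin A and 13.4, 10.6, 10.3 and 7.14 CPM with GFP. It fell in PE by 1.08 on the log2 scale and was not called in PM, with a line difference of 1.49 (SE 0.24, adjusted p = 8.95e-05). Other members rose in both lines, and by more in PM. CDKN1A, which encodes the cell cycle inhibitor p21, averaged 475 ± 43.8 and 148 ± 16.5 CPM in PM with hairpin A and with GFP, and 279 ± 27.9 and 174 ± 17.5 CPM in PE with hairpin A and with GFP (SD, n = 4 each). Its line difference was 1.02 (SE 0.22, adjusted p = 0.00796). TRIAP1, which limits apoptosis after p53 activation, averaged 73 ± 2.62 and 22 ± 1.9 CPM in PM with hairpin A and with GFP, and 31.2 ± 3.3 and 17.9 ± 0.969 CPM in PE with hairpin A and with GFP. Its line difference was 0.94 (SE 0.12, adjusted p = 1.18e-06). GDF15, a secreted stress signal, and BTG2, which slows proliferation, passed with adjusted p of 0.0482 and 0.0402. These 2 calls were lost under 16 and 17 of the 25 alternatives, 14 of them for each gene the removal of 1 library, with adjusted p up to 0.165 and 0.148.

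**Figure D3:**
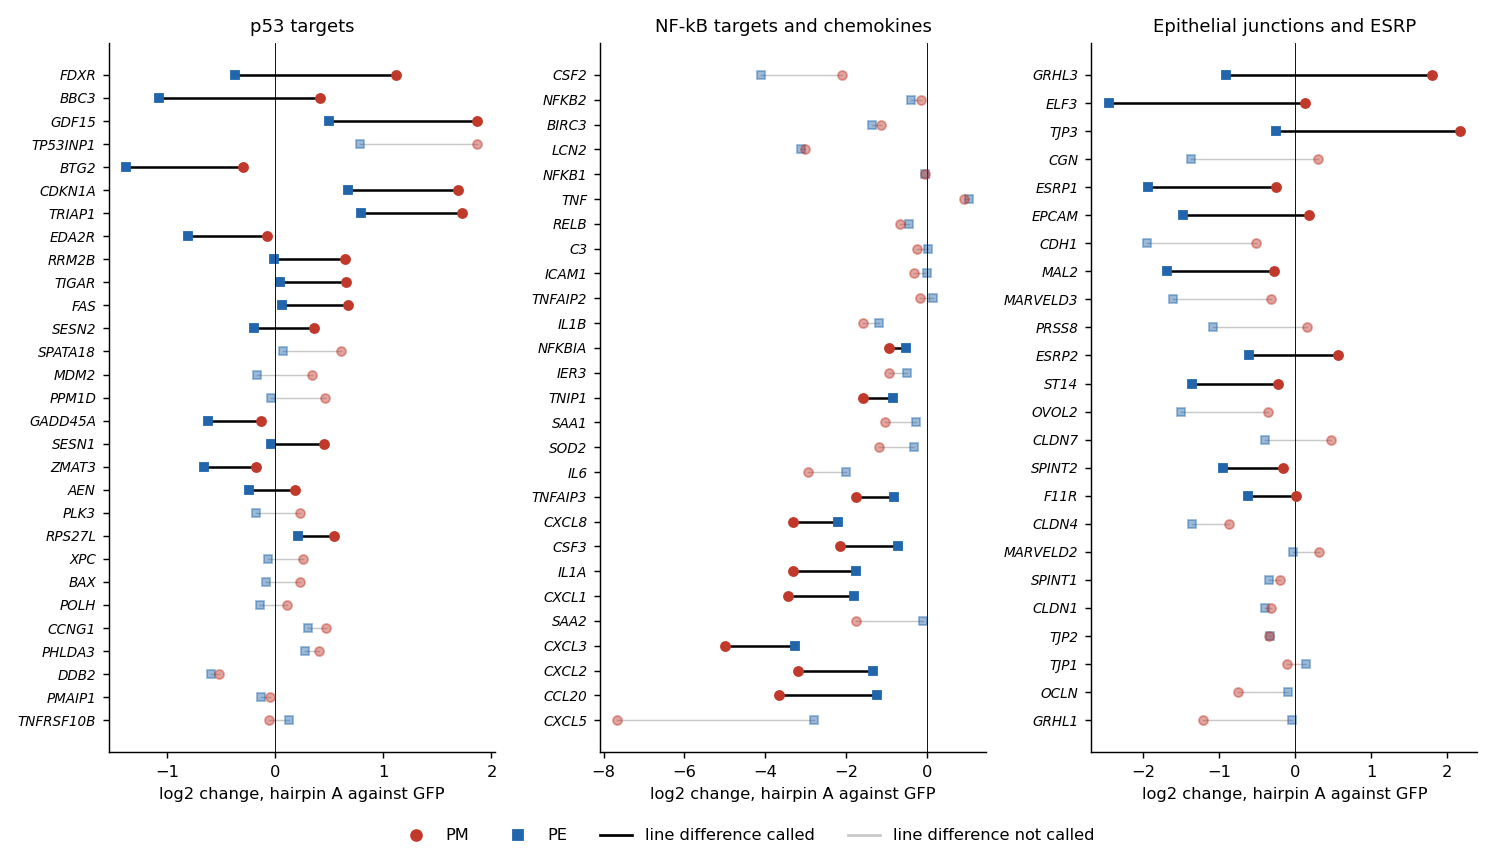
Log2 change under hairpin A against GFP (x axis) in PM (red circles) and PE (blue squares) for each tested member of 3 gene lists, ordered by the line difference. Black joins mark members called in the line difference and grey joins those not called. The p53 targets lie further right in PM for 28 of 29 members, the called NF-kB targets further left in PM, and the called epithelial genes lie left of 0 in PE.

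More epithelial junction genes fell in PE than in PM. These genes encode the adhesion and tight-junction proteins of epithelial sheets, and with them the list holds the splicing factors ESRP1 and ESRP2 and transcription factors of epithelial identity. Of 24 tested members, 13 fell in PE and none rose, against 9.33% and 10.9% of all genes. In PM 3 rose and 3 fell, shares close to the 13.4% and 14.3% of all genes. Their line difference was higher for 10 and lower for none, against 2.76% and 3.9% of all genes. Without adjustment the counts were 15 and 1, against 8.66% and 10.7% of all genes. The DESeq2 Wald test gave 13 higher and limma-voom 10, with none lower by either. The median line difference was 1.14. The 10 were GRHL3, ELF3, TJP3, ESRP1, EPCAM, MAL2, ESRP2, ST14, SPINT2 and F11R. Bulk libraries do not tell fewer epithelial cells from less of these RNAs per cell.

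EPCAM encodes an epithelial adhesion molecule. In PM, EPCAM had 101, 110, 109 and 107 CPM with hairpin A and 105, 94.7, 93.9 and 82.8 CPM with GFP. In PE, EPCAM had 7.1, 9.11, 6.07 and 6.65 CPM with hairpin A and 28.3, 27.4, 15.2 and 14.5 CPM with GFP. EPCAM fell in PE by 1.47 on the log2 scale and overlapped between hairpins in PM, and the line difference was 1.65 (SE 0.28, adjusted p = 0.000941). ESRP1 sets the epithelial splicing pattern of many transcripts. In PM, ESRP1 had 15.3, 12.8, 16.1 and 14.3 CPM with hairpin A and 18.2, 16.7, 17.5 and 17.3 CPM with GFP. In PE, ESRP1 had 2.7, 1.79, 1.35 and 1.2 CPM with hairpin A and 12.2, 8.41, 5.47 and 3.85 CPM with GFP. Its change was -0.25 (SE 0.22, adjusted p = 0.449) in PM and -1.93 (SE 0.25, adjusted p = 1.72e-06) in PE, and the line difference was 1.67 (SE 0.33, adjusted p = 0.00183). In PE with the GFP hairpin, the levels of both genes declined in order from replicate 1 to replicate 4. Those of LAD1, S100A14 and PKP2, described below, did so too. With hairpin A in PE, the levels of LAD1, S100A14 and ESRP1 also declined in that order, and those of EPCAM and PKP2 did not. The cause was not tested. The related ESRP2 rose in PM by 0.57 and fell in PE by 0.6 on the log2 scale, with means of 142 ± 2.85 and 95.9 ± 9.88 CPM in PM with hairpin A and with GFP, and 33.5 ± 4.94 and 51.2 ± 4.77 CPM in PE with hairpin A and with GFP (SD, n = 4 each). GRHL3 encodes a transcription factor of skin barrier formation. In PM, GRHL3 had 2.39, 2.75, 2.53 and 3.91 CPM with hairpin A and 0.865, 0.176, 0.594 and 1.71 CPM with GFP. In PE, GRHL3 had 2.6, 2.78, 2.01 and 3.33 CPM with hairpin A and 7.12, 5.21, 4.05 and 4.56 CPM with GFP. It rose in PM by 1.8 on the log2 scale and was not called in PE, where hairpin A libraries lay below GFP libraries, and the line difference was 2.71 (SE 0.53, adjusted p = 0.00151). CDH1, which encodes E-cadherin, averaged 18.3 ± 2.9 and 26 ± 1.71 CPM in PM with hairpin A and with GFP, and 2.12 ± 1.34 and 9.22 ± 4.28 CPM in PE with hairpin A and with GFP. It fell in PE by 1.95 on the log2 scale (adjusted p = 0.000763), and its line difference of 1.43 did not pass (SE 0.49, adjusted p = 0.093).

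Other genes of cell contact and of the stratified epithelium followed. LAD1 encodes ladinin, a filament-associated protein of basement membrane anchorage. In PM, LAD1 had 57.6, 64.8, 56.4 and 49.1 CPM with hairpin A and 50.4, 57.7, 42.4 and 50.2 CPM with GFP. In PE, LAD1 had 0.991, 0.733, 0.511 and 0.3 CPM with hairpin A and 7.34, 4.96, 4.13 and 2.51 CPM with GFP. The fall in PE was 2.67 on the log2 scale and the groups overlapped in PM, and the line difference was 2.86 (SE 0.36, adjusted p = 3.49e-05). S100A14 encodes a calcium-binding protein of epithelia. In PM, S100A14 had 180, 181, 201 and 293 CPM with hairpin A and 278, 265, 240 and 344 CPM with GFP. In PE, S100A14 had 17.4, 15.9, 13.4 and 10.7 CPM with hairpin A and 75, 60.7, 44 and 34.3 CPM with GFP. S100A14 fell in PE alone, and the line difference was 1.44 (SE 0.31, adjusted p = 0.0067). Desmosomes rivet epithelial cells together, and of 10 tested members 3 were higher and none lower, with 5 and 0 unadjusted, 5 and 0 by the DESeq2 Wald test and 3 and 0 by limma-voom. PKP2, a plakophilin of the desmosomal plaque, was the largest of them. In PM, PKP2 had 45.2, 45.8, 40.1 and 36.2 CPM with hairpin A and 43.9, 44.1, 47.5 and 45.1 CPM with GFP. In PE, PKP2 had 8.79, 9.55, 9.92 and 6.67 CPM with hairpin A and 37.6, 27.2, 26.5 and 15.8 CPM with GFP. It fell in PE by 1.56 on the log2 scale, and the line difference was 1.44 (SE 0.22, adjusted p = 0.000121). DSP, which encodes desmoplakin, and PKP3 had line differences of 0.52 (SE 0.14, adjusted p = 0.0187) and 0.47 (SE 0.1, adjusted p = 0.00232), and the call of DSP was lost in a fit of the 16 libraries alone and without the 2 libraries that stood apart, with adjusted p up to 0.0762. Of 13 members of squamous differentiation tested, 3 were higher and 1 lower. ABCA12, a lipid transporter of the skin barrier, led them. In PM, ABCA12 had 36, 35, 38.9 and 38.1 CPM with hairpin A and 7.03, 4.66, 7.3 and 6.38 CPM with GFP. In PE, ABCA12 had 2.82, 2.17, 1.11 and 0.656 CPM with hairpin A and 6.45, 3.36, 4.49 and 1.78 CPM with GFP. It rose in PM, by 2.54 on the log2 scale, and the line difference was 3.6 (SE 0.57, adjusted p = 0.000612).

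Genes of the basal layer were called in both directions. Of 23 tested genes of basal mammary epithelium, 2 were higher and 4 lower, with 4 and 7 unadjusted, 3 and 5 by the DESeq2 Wald test and 1 and 5 by limma-voom, and a median of -0.42. Of 13 genes of hemidesmosomes and laminin-332, several of them in both lists, 2 were higher and 3 lower, with 2 and 4 unadjusted, 2 and 3 by the DESeq2 Wald test and 1 and 2 by limma-voom, and a median of -0.36. The basal keratins KRT5 and KRT14, named after their values were seen, had line differences of -0.36 (SE 0.28, adjusted p = 0.549) and -0.88 (SE 0.61, adjusted p = 0.484). KRT6A, a keratin of wounded and cultured epithelium, fell in both lines with a line difference of -1.06 (SE 0.25, adjusted p = 0.0131). The near-identical KRT6C had -1.05 (SE 0.25, adjusted p = 0.0134), and reads may be split between these copies. LAMB3, a chain of laminin-332, fell in both lines, by 2.39 in PM and 1.65 in PE on the log2 scale, with a line difference of -0.74 (SE 0.17, adjusted p = 0.00824). LAMA3, which also encodes a chain of laminin-332 (line difference 0.83, SE 0.24, adjusted p = 0.0425), and the collagen gene COL17A1 (line difference 1.75, SE 0.51, adjusted p = 0.0458) passed in the other direction, but lost the call under 18 and 15 of the 25 alternatives, 13 for each gene being single libraries, with adjusted p up to 0.125 and 0.156. Of 12 luminal genes, 1 was higher and 2 lower, with 2 and 3 unadjusted, 1 and 3 by the DESeq2 Wald test and 1 and 2 by limma-voom. MUC1, which encodes a mucin of the apical surface, and the keratin KRT7 fell in PM alone, with line differences of -1.61 (SE 0.37, adjusted p = 0.0115) and -0.6 (SE 0.13, adjusted p = 0.00487). ALDH1A3, an enzyme that makes retinoic acid, fell in both lines and by less in PM (line difference 0.95, SE 0.27, adjusted p = 0.0268), a call lost without any of 8 single libraries (adjusted p up to 0.0741).

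Of 26 tested mesenchymal genes, 10 responded lower in PM than in PE and 16 were not called, with 7 positive values among the 26. In the single lines, 4 rose and 7 fell in PM, and 10 rose and 2 fell in PE. Over all genes 13.4% rose and 14.3% fell in PM, and 10.9% rose and 9.33% fell in PE. The lower and higher counts of the line difference were 10 and 0, against 3.9% and 2.76% of all genes. Unadjusted they were 13 and 0, against 10.7% and 8.66% of all genes. The DESeq2 Wald test gave 12 and 0, and limma-voom 7 and 0. The median was -0.47. The 10 were ZEB2, FAP, TGFBI, SNAI2, TWIST1, S100A4, SNAI1, WNT5A, CDH2 and VIM, among them 4 transcription factors that repress epithelial genes (ZEB2, SNAI1, SNAI2 and TWIST1). Without the 2 libraries that stood apart 7 were called. The call of SNAI2 was lost without PE with hairpin A replicate 4, PE with GFP replicate 2 or PM with hairpin A replicate 3 (adjusted p up to 0.0708), and that of FAP by limma-voom and without PM with GFP replicate 1 (adjusted p up to 0.0662). Both were also lost without the 2 libraries that stood apart. In PM, ZEB2 had 13.7, 11.7, 11 and 16.7 CPM with hairpin A and 21.2, 18.5, 21.7 and 26.8 CPM with GFP. In PE, ZEB2 had 54.2, 42.3, 61.9 and 55.5 CPM with hairpin A and 33.2, 34.9, 40.4 and 40.5 CPM with GFP. The hairpin groups did not overlap in either line, with lower levels under hairpin A in PM and higher levels in PE, and the line difference was -1.25 (SE 0.24, adjusted p = 0.00204). TGFBI encodes a matrix protein induced by TGF-beta. In PM, TGFBI had 1390, 1450, 1290 and 1810 CPM with hairpin A and 1790, 2220, 1980 and 2990 CPM with GFP. In PE, TGFBI had 4230, 4350, 4650 and 4600 CPM with hairpin A and 2550, 2780, 4040 and 3200 CPM with GFP. It fell in PM by 0.59 on the log2 scale, and in PE all hairpin A libraries lay above all GFP libraries with a change of 0.5 (SE 0.18, adjusted p = 0.0607). Its line difference was -1.1 (SE 0.26, adjusted p = 0.0136). VIM, the intermediate filament gene vimentin, averaged 609 ± 11.9 and 565 ± 20.7 CPM in PM with hairpin A and with GFP, and 1190 ± 51.7 and 871 ± 100 CPM in PE with hairpin A and with GFP (SD, n = 4 each). It rose in PE alone, and the line difference was -0.34 (SE 0.09, adjusted p = 0.0131). In PM, the 14 fibroblast and endothelial markers summed to 16.8 to 21.1 CPM with hairpin A and 20.2 to 45.3 CPM with GFP. In PE they summed to 42.4 to 57.3 CPM with hairpin A and 61.5 to 75.2 CPM with GFP. DCN was the largest part except in PM with hairpin A, where COL1A1 averaged 10.1 CPM and DCN 3.25 CPM. The part of these markers in the differences was not tested.

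**Figure D4:**
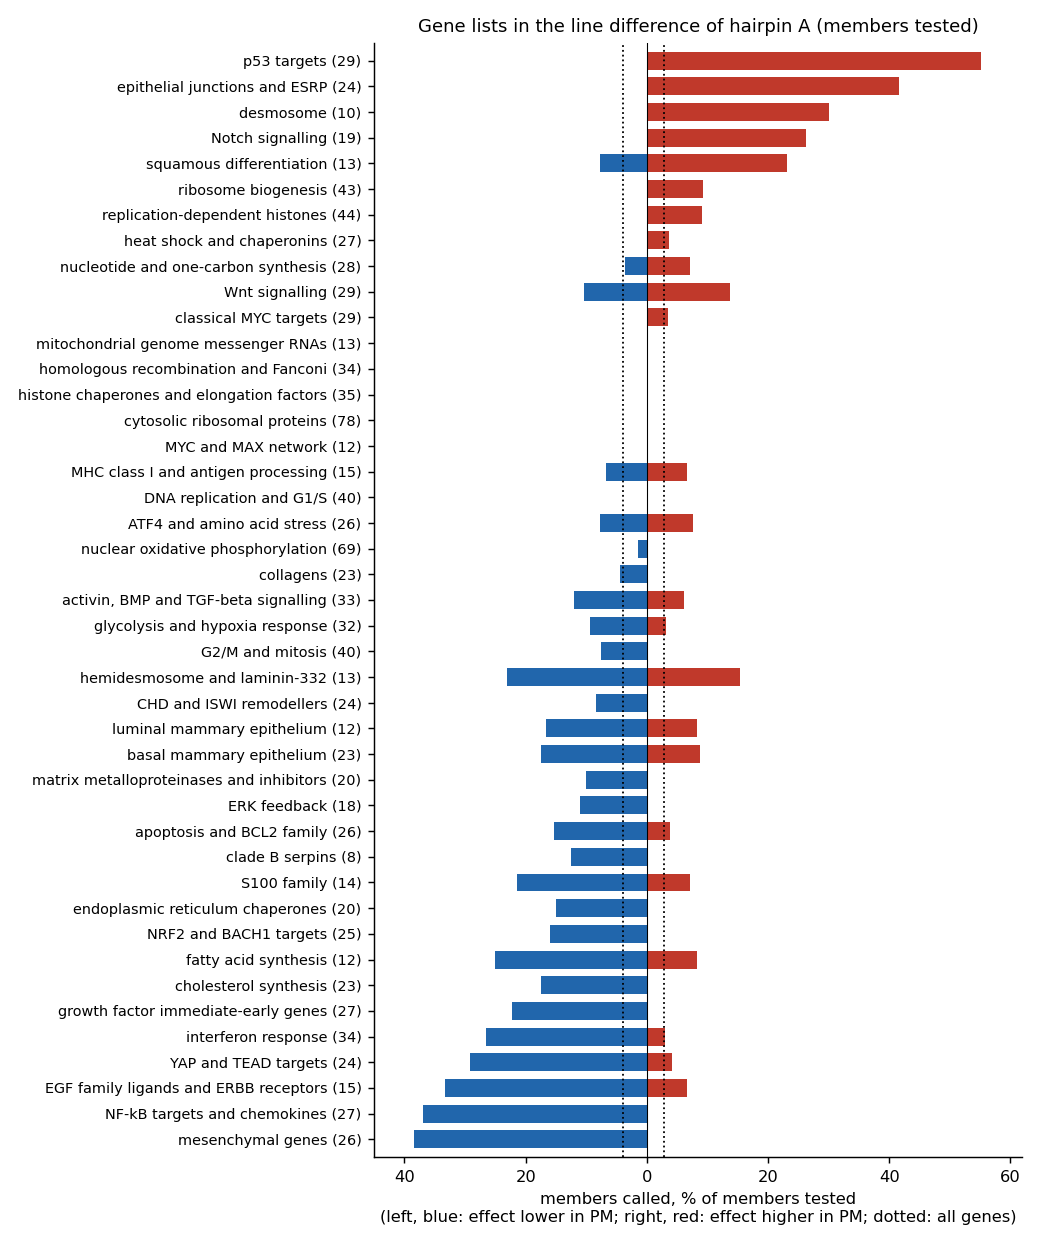
Share of the tested members of each gene list that was called in the line difference (x axis, percent), with members whose effect was higher in PM to the right (red) and lower in PM to the left (blue). Numbers in brackets are members tested, and dotted lines give the shares over all genes, 2.76% and 3.9%. The p53 targets reach 55.2% on the right, and mesenchymal genes and NF-kB targets 38.5% and 37% on the left.

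Several ligands of the EGF family fell further in PM on the log2 scale. These ligands bind EGFR and its relatives, which MCF10A cells depend on for growth. Of 15 tested ligands and receptors, 5 were lower in PM and 1 higher, against 3.9% and 2.76% of all genes. The 5 were EREG, NRG1, BTC, AREG and ERBB2. The higher one was HBEGF, with 0.83 (SE 0.26, adjusted p = 0.0483), whose call was lost by limma-voom and without any of 12 single libraries (adjusted p up to 0.112). In PM, EREG had 6.98, 7.87, 4.86 and 6.25 CPM with hairpin A and 29.6, 27, 29.5 and 22.8 CPM with GFP. In PE, EREG had 80, 80.2, 82.9 and 80.6 CPM with hairpin A and 76.3, 108, 111 and 121 CPM with GFP. EREG, which encodes epiregulin, fell in PM by 2.09 on the log2 scale and was not called in PE, with a line difference of -1.71 (SE 0.25, adjusted p = 0.000248). AREG encodes amphiregulin. In PM, AREG had 155, 164, 155 and 230 CPM with hairpin A and 526, 582, 525 and 603 CPM with GFP. In PE, AREG had 482, 488, 551 and 600 CPM with hairpin A and 527, 676, 755 and 975 CPM with GFP. It fell in both lines, and PM with hairpin A lay below the other 3 groups. The line difference was -1.19 (SE 0.22, adjusted p = 0.00177). BTC, which encodes betacellulin, had a line difference of -1.41 (SE 0.3, adjusted p = 0.00228). EREG, AREG and BTC lie on chromosome 4 at 74365145, 74445136 and 74744759, on from CXCL3, CXCL2 and CXCL1 at 74036589, 74097040 and 73869393 in GRCh38.p14. EGFR fell in both lines, with a line difference of -0.22 (SE 0.1, adjusted p = 0.221).

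Immediate-early genes respond within minutes to growth factors. Of 27 tested members, 18 fell in PM and 10 in PE, against 14.3% and 9.33% of all genes. In the line difference 6 were lower (KLF4, MAFF, FOSL2, BTG1, JUNB and MCL1) and none higher, against 3.9% and 2.76% of all genes. The unadjusted counts were 11 and 0, those of the DESeq2 Wald test 8 and 0 and those of limma-voom 6 and 0. JUNB averaged 57.6 ± 5.19 and 117 ± 11.9 CPM in PM with hairpin A and with GFP, and 90.7 ± 6.55 and 116 ± 19.2 CPM in PE with hairpin A and with GFP (SD, n = 4 each), a line difference of -0.64 (SE 0.13, adjusted p = 0.00248). PHLDA1 is a target and feedback gene of ERK signalling. In PM, PHLDA1 had 86.1, 86.2, 90.7 and 88 CPM with hairpin A and 143, 155, 139 and 133 CPM with GFP. In PE, PHLDA1 had 157, 178, 148 and 192 CPM with hairpin A and 129, 144, 133 and 140 CPM with GFP. It fell in PM by 0.7 and rose in PE by 0.3 on the log2 scale, and the line difference was -1 (SE 0.12, adjusted p = 7.83e-07). DUSP1, a phosphatase that switches off MAP kinases, fell in PM alone with a line difference of -0.61 (SE 0.14, adjusted p = 0.00714).

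Within TGF-beta, activin and BMP signalling, single genes stood out rather than the list, of which 2 of 33 were higher and 4 lower. FSTL1 encodes a secreted glycoprotein that binds ligands of this family. In PM, FSTL1 had 60, 63.1, 66.2 and 53 CPM with hairpin A and 115, 119, 128 and 130 CPM with GFP. In PE, FSTL1 had 231, 235, 253 and 221 CPM with hairpin A and 198, 203, 245 and 229 CPM with GFP. It fell in PM by 1.02 on the log2 scale, was not called in PE, and had a line difference of -1.12 (SE 0.1, adjusted p = 9.13e-09). BMP6 encodes a ligand. In PM, BMP6 had 9.08, 8.26, 8.08 and 5.5 CPM with hairpin A and 3.32, 5.09, 2.85 and 4.84 CPM with GFP. In PE, BMP6 had 0.35, 0.205, 0.331 and 0.787 CPM with hairpin A and 1.34, 2.06, 3.52 and 2.29 CPM with GFP. It rose in PM by 0.94 and fell in PE by 2.5 on the log2 scale, and the line difference was 3.44 (SE 0.51, adjusted p = 3.61e-05). ID1, a target of BMP signalling, fell in both lines and further in PM (line difference -0.77, SE 0.14, adjusted p = 0.00091). TIMP1, an inhibitor of matrix metalloproteinases, did likewise on the log2 scale, though its mean CPM fell by more in PE. In PM, TIMP1 had 396, 440, 367 and 447 CPM with hairpin A and 915, 1150, 974 and 1070 CPM with GFP. In PE, TIMP1 had 1660, 1610, 1700 and 1920 CPM with hairpin A and 2100, 2260, 2700 and 2600 CPM with GFP. All 4 groups were apart, and the line difference was -0.83 (SE 0.12, adjusted p = 4.08e-05). Of 24 targets of YAP and TEAD, which answer cell spreading, 7 were lower and 1 higher in PM, against 3.9% and 2.76% of all genes. The 7 were ANKRD1, DLC1, GADD45B, F3, RBMS3, AMOTL2 and YAP1 itself, the 1 was TEAD4, and the count of lower genes ran from 4 to 11 as single libraries were left out (11 without PE with GFP replicate 3, and 4 without PE with hairpin A replicate 1, 3 or 4, PE with GFP replicate 2, PM with hairpin A replicate 2 or PM with GFP replicate 1 or 3). The call of RBMS3 was lost without any of 13 single libraries and under 4 other alternatives, with adjusted p up to 0.121. F3, which encodes tissue factor, fell by 1.45 in PM and by 0.54 in PE on the log2 scale, a line difference of -0.91 (SE 0.17, adjusted p = 0.00177).

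Notch genes were higher in PM for 5 of 19 members and lower for none, against 2.76% and 3.9% of all genes. The counts were 7 and 0 unadjusted, 5 and 0 by the DESeq2 Wald test and 6 and 0 by limma-voom. The count of 5 became 3 without PE with hairpin A replicate 3 or 4, PE with GFP replicate 2 or 4, PM with hairpin A replicate 1 or PM with GFP replicate 4. The 5 were HES2, NRARP, DLL3, NOTCH1 and JAG2, and the call of NOTCH1 was lost in a fit of the 16 libraries alone and without any of 10 single libraries (adjusted p up to 0.102). HES2 encodes a repressor of the HES family. In PM, HES2 had 8.91, 6.91, 10.3 and 9.8 CPM with hairpin A and 1.19, 1.19, 0.458 and 1.1 CPM with GFP. In PE, HES2 had 1.32, 0.908, 0.752 and 0.918 CPM with hairpin A and 0.223, 1.55, 1.04 and 0.552 CPM with GFP. It rose in PM by 3.22 on the log2 scale, and the line difference was 3.13 (SE 0.46, adjusted p = 3.02e-05). NRARP is a feedback inhibitor of Notch. In PM, NRARP had 16, 15.8, 18.5 and 12.6 CPM with hairpin A and 12.6, 13.4, 17.6 and 10.4 CPM with GFP. In PE, NRARP had 2.31, 2.55, 2.56 and 2.64 CPM with hairpin A and 7.57, 4.65, 5.29 and 5.82 CPM with GFP. NRARP fell in PE alone, and the line difference was 1.38 (SE 0.24, adjusted p = 0.000233). Of 29 Wnt genes, 4 were higher and 3 lower, against 2.76% and 3.9% of all genes. WNT10B, a ligand, rose in PM (line difference 1.33, SE 0.23, adjusted p = 0.000198), and the receptor FZD8 and RNF43, a ubiquitin ligase that removes such receptors, fell in PE alone, with line differences of 1.15 (SE 0.23, adjusted p = 0.00119) and 1.18 (SE 0.29, adjusted p = 0.00813). Among the lower members, DKK1, a secreted antagonist, fell in PM alone (line difference -1.43, SE 0.35, adjusted p = 0.018), and so did the ligand WNT5A (line difference -0.75, SE 0.2, adjusted p = 0.0164). The lower count was 2 without PE with hairpin A replicate 1, PE with GFP replicate 1 or 2, or PM with GFP replicate 4, and 1 without the 2 libraries that stood apart, where the adjusted p of DKK1 was 0.0515.

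The lists of cholesterol, fatty acid and sugar metabolism had negative medians (-0.2, -0.18 and -0.36). Of 23 genes of cholesterol synthesis and uptake, 4 were lower and none higher, with 11 and 0 unadjusted and 4 and 0 both by the DESeq2 Wald test and by limma-voom. The count ran from 2 to 6 as single libraries were left out (2 without PE with hairpin A replicate 1 or 3, PM with hairpin A replicate 4 or PM with GFP replicate 1, and 6 without PE with hairpin A replicate 4). FDPS, an enzyme of isoprenoid synthesis, rose in PE alone (line difference -0.5, SE 0.12, adjusted p = 0.00657). Of 12 genes of fatty acid synthesis, FADS1, ACSL3 and ELOVL5 were lower and ACACA, the carboxylase of the committed step, higher. The call of ACACA was lost without any of 6 single libraries (adjusted p up to 0.131). FADS1, a desaturase, fell in both lines and further in PM (line difference -0.62, SE 0.12, adjusted p = 0.000941), and the elongase ELOVL5 rose in PE alone (line difference -0.43, SE 0.08, adjusted p = 0.00115). In glycolysis and the hypoxia response 12 of 32 genes rose in PE and 4 in PM. In the line difference 30 of these had a negative value, 3 passed as lower and 1 as higher, and the count of lower members ran from 0 (without PE with GFP replicate 2) to 4 as single libraries were left out. FTH1, the ferritin heavy chain and a target of NRF2, fell in PM alone (line difference -0.63, SE 0.12, adjusted p = 0.00104).

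Genes of ribosome assembly leaned the other way. Of 43 tested, 24 rose in PM and 8 in PE, against 13.4% and 10.9% of all genes. In the line difference 4 were higher and none lower, against 2.76% and 3.9% of all genes. Of the 43, 38 had a positive value, and the median was 0.19. The unadjusted counts were 17 higher and 1 lower, against 8.66% and 10.7% of all genes. The DESeq2 Wald test gave 9 and 0, limma-voom 5 and 0, and scaling by library size alone 13 higher. Leaving out single libraries gave 3 to 9, with 9 without PE with GFP replicate 1, 8 without PM with GFP replicate 2, and 6 without PE with hairpin A replicate 2 or PM with hairpin A replicate 4. The 4 were POLR1B, RRP9, POLR1E and POLR1A, of which all but RRP9 encode subunits of RNA polymerase I, the enzyme that transcribes ribosomal RNA. The call of POLR1E was lost without any of 6 single libraries (adjusted p up to 0.0808). In PM, POLR1B had 197, 199, 195 and 189 CPM with hairpin A and 97.6, 110, 87 and 110 CPM with GFP. In PE, POLR1B had 91.7, 98.3, 75.4 and 85.4 CPM with hairpin A and 76.5, 70.2, 61.4 and 71.4 CPM with GFP. It rose in both lines, by 0.95 in PM and 0.34 in PE on the log2 scale, and the line difference was 0.61 (SE 0.11, adjusted p = 0.000448). Of 29 classical MYC targets, 1 was higher and none lower by edgeR, with 10 and 0 unadjusted, 6 and 0 by the DESeq2 Wald test and 2 and 0 by limma-voom. The count ran from 0 to 6 as single libraries were left out (0 without PE with GFP replicate 2, 2 without PE with hairpin A replicate 1, 3 without PE with hairpin A replicate 2 or PE with GFP replicate 1, 5 without PM with GFP replicate 2 and 6 without PM with hairpin A replicate 4). The called gene was CAD, which starts pyrimidine synthesis, with a fall in PE alone and a line difference of 0.35 (SE 0.1, adjusted p = 0.022), which was lost without PE with GFP replicate 2 (adjusted p = 0.0691). None of 12 genes of the MYC and MAX network was called by edgeR, 6 were higher and 1 lower unadjusted, and 2 were higher by the DESeq2 Wald test and none by limma-voom.

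Several lists had no member with a called line difference by edgeR. Over all genes 8.66% were higher and 10.7% lower unadjusted, the background for the unadjusted counts given here. Of 40 genes of DNA replication and G1/S, 30 fell in PM and 26 in PE. In the line difference 0 of 40 passed, with 4 lower and none higher unadjusted, none by the DESeq2 Wald test and none by limma-voom, and a median of -0.01. Of 34 genes of the Fanconi pathway and of repair by recombination, 17 fell in PM and 22 in PE, and 0 differed, with 3 higher and 1 lower unadjusted, 1 higher by the DESeq2 Wald test and none by limma-voom. Of 78 cytosolic ribosomal proteins, 29 rose in PM and 41 in PE, and 0 differed, with 9 lower unadjusted and none by the other tools. For 72 of these 78 the line difference was negative, with a median of -0.12. Of 13 messenger RNAs of the mitochondrial genome 4 rose in PM and 1 in PE, and 0 differed, with none unadjusted or by the other tools. Of 35 histone chaperones and elongation factors 9 rose and 8 fell in PM and 6 rose and 4 fell in PE, and 0 differed, with 1 higher and 5 lower unadjusted and none by the other tools. A p that misses the threshold does not show that the lines responded alike. Among 40 genes of G2/M and mitosis 3 were lower (ANLN, NUSAP1 and KIF20A), 36 had a negative value and the median was -0.15. The count of lower genes ran from 1 to 5 as single libraries were left out (1 without PE with GFP replicate 2 and 5 without PE with GFP replicate 3). Of 44 replication-dependent histone genes tested, 4 were higher and none lower, with 10 and 0 unadjusted, and poly(A) selection keeps few of their messages.

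Other lists held few called members by number, but their shares lower in PM lay above the 3.9% of all genes. The shares lower were 16% for NRF2 and BACH1, 15% for endoplasmic reticulum chaperones, 15.4% for apoptosis, 21.4% for S100 and 7.69% for ATF4. In the same order 0, 0, 3.85, 7.14 and 7.69% were higher, against 2.76% of all genes. Of 25 genes listed for NRF2 and BACH1, 4 were lower (FTH1, ABCC3, GCLC and NFE2L2, which encodes NRF2 itself). This was a count of 2 without PM with hairpin A replicate 3. The call of NFE2L2 was lost under 15 of 25 alternatives (adjusted p up to 0.131). Of 20 chaperones of the endoplasmic reticulum 3 were lower (HSPA5, HSP90B1 and SEL1L), and the count fell to between 0 and 2 in 14 of 16 fits that left out 1 library, the exceptions being PE with GFP replicate 3 and PM with GFP replicate 4. HSPA5 and SEL1L lost their calls under 15 and 11 of 25 alternatives (adjusted p up to 0.147 and 0.0967). Among 26 genes of apoptosis, 4 were lower (BCL2L1, BAD and MCL1 among them) and 1 higher (BBC3, given above). BCL2L1, which encodes a survival factor, rose in PE alone with a line difference of -0.56 (SE 0.12, adjusted p = 0.00361). Of 14 genes of the S100 family, S100A4, S100A6 and S100A10 were lower and S100A14 higher. Of 26 targets of ATF4, a transcription factor of amino acid stress, 2 were higher (PSAT1 and SESN2) and 2 lower (CEBPB and PPP1R15A). PPP1R15A, a phosphatase subunit that restores translation after stress, fell in PM alone (line difference -0.85, SE 0.19, adjusted p = 0.00359).

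Among remodellers of the CHD and ISWI families, to which CHD1 belongs, 2 of 24 were lower in PM and none higher. Over all genes 3.9% were lower and 2.76% higher. Unadjusted, 2 were higher and 3 lower, and the counts were 1 and 2 both by the DESeq2 Wald test and by limma-voom. SMARCA1 encodes the ATPase SNF2L of the ISWI family. In PM, SMARCA1 had 3.57, 3.05, 3.74 and 3.22 CPM with hairpin A and 3.39, 3.37, 3.39 and 2.3 CPM with GFP. In PE, SMARCA1 had 15.7, 17.8, 17.6 and 16.4 CPM with hairpin A and 5.56, 4.13, 5.94 and 5.96 CPM with GFP. It rose in PE by 1.63 on the log2 scale and overlapped between hairpins in PM, and the line difference was -1.49 (SE 0.21, adjusted p = 9.39e-06). CHD3, an ATPase of the NuRD complex, fell in PM alone, by 0.44 on the log2 scale, with a line difference of -0.4 (SE 0.09, adjusted p = 0.00644).

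Of the largest positive differences not yet named, LPAR3 encodes a receptor of lysophosphatidic acid. In PM, LPAR3 had 16.2, 16.3, 17.3 and 14.3 CPM with hairpin A and 16.5, 21.4, 14.3 and 15 CPM with GFP. In PE, LPAR3 had 0.486, 0.381, 0.571 and 0.674 CPM with hairpin A and 3.34, 2.68, 3.82 and 4.62 CPM with GFP. It fell in PE by 2.79 on the log2 scale and was not called in PM, and the line difference was 2.73 (SE 0.26, adjusted p = 1.37e-08). GRIN2C encodes a subunit of glutamate receptors. In PM, GRIN2C had 4.69, 5.68, 7.84 and 6.16 CPM with hairpin A and 0.18, 0.196, 0.743 and 0.427 CPM with GFP. In PE, GRIN2C had 0.369, 0.264, 0.241 and 0.131 CPM with hairpin A and 0.223, 0.103, 0.35 and 0.276 CPM with GFP. It stayed under 1 CPM in the other 3 groups, and the line difference was 3.97 (SE 0.68, adjusted p = 0.000258). SLC27A2 encodes a fatty acid transporter. In PM, SLC27A2 had 33.7, 37.3, 35 and 27.2 CPM with hairpin A and 18, 17.2, 18.1 and 12.2 CPM with GFP. In PE, SLC27A2 had 1.89, 0.996, 1.23 and 0.993 CPM with hairpin A and 5.56, 5.47, 2.57 and 2.98 CPM with GFP. It rose in PM by 1.02 and fell in PE by 1.53 on the log2 scale, and the line difference was 2.55 (SE 0.29, adjusted p = 6.35e-07). RGS16, a regulator of G protein signalling, and IGFBP2, which binds insulin-like growth factors, moved in opposite directions in the lines too, with line differences of 2.05 (SE 0.32, adjusted p = 0.000117) and 1.69 (SE 0.36, adjusted p = 0.00283). NKX1-2 had the largest fitted value, 6.04, but it was at 0.0194, 0, 0 and 0 CPM in PE with hairpin A, so that its size depends on the prior count. On the negative side, SERPINB3 was fitted at -4.49 (SE 1.08, adjusted p = 0.0144), with 2 of 4 libraries of PM with hairpin A at 0, a near-identical copy in SERPINB4, and no call by limma-voom or without PM with hairpin A replicate 3 (adjusted p up to 0.146). RARRES1, SAMSN1, PTGFR, IL13RA2 and SYN2 were also among the 12 most negative, between -2.17 and -1.85, and DNAAF3, GLDC and CLCA2 among the 12 most positive, between 2.57 and 2.83. CLCA2 lost its call by limma-voom alone (adjusted p = 0.0836). The calls of IL13RA2, SYN2 and GLDC were lost by limma-voom and without 1, 7 and 4 single libraries, with adjusted p over these alternatives up to 0.0664, 0.164 and 0.378. For IL13RA2 the library was PM with hairpin A replicate 3. For GLDC these were PE with GFP replicate 4, PM with hairpin A replicates 1 and 2, and PM with GFP replicate 4.

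Hairpin B was set against hairpin A by testing the difference between their line differences, in which the GFP libraries cancel out. The line difference of hairpin B was called higher in PM for 306 genes (1.47%) and lower for 204 (0.98%), and it shares the 8 GFP libraries with that of hairpin A. The line difference was higher under hairpin B than under hairpin A for 613 genes (2.94%) and lower for 431 (2.07%). NF-kB targets were among the genes that differed between hairpins. Of 27 NF-kB targets, 0 were called in the line difference of hairpin B, where the median was 0.04, against -0.74 under hairpin A. The line difference was higher under hairpin B than under hairpin A for 9 of them and lower for 0. CCL20 had line differences of -2.43 under hairpin A and -0.98 under hairpin B, a difference of 1.45 (SE 0.33, adjusted p = 0.0129). For CFB the values were -2.28 and 0.27, a difference of 2.54 (SE 0.47, adjusted p = 0.00248). EREG and AREG also differed, by 1.24 (SE 0.25, adjusted p = 0.00454) and 1.17 (SE 0.22, adjusted p = 0.0022), and neither was called under hairpin B. TIMP1 was lower in PM under hairpin A and higher under hairpin B (-0.83 and 1.06), a difference of 1.9 (SE 0.12, adjusted p = 1.23e-11). Of 26 mesenchymal genes, 2 were lower and 1 higher in the line difference of hairpin B. Their line difference was higher under hairpin B than under hairpin A for 7 and lower for 1. Of 23 genes of basal mammary epithelium, 10 were higher and 0 lower under hairpin B, with a median of 1.1. For 14 of these the line difference was higher under hairpin B than under hairpin A, and for 0 lower.

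Among p53 targets, 2 of 29 were called in the line difference of hairpin B, and 5 had a lower line difference under it than under hairpin A. FDXR had 1.49 under hairpin A and 0.25 under hairpin B, a difference of -1.24 (SE 0.25, adjusted p = 0.00515), and BBC3 1.49 and 0.47, a difference of -1.02 (SE 0.23, adjusted p = 0.00487). CDKN1A had 1.02 and 0.41, a difference that did not pass (-0.61, adjusted p = 0.141). The epithelial list had 9 of 24 members higher in the line difference of hairpin B, and the hairpins differed for 8 of the 24, 4 each way. ESRP1 and LAD1 were higher in PM under both hairpins and further so under hairpin B, at 5.42 and 4.89, with differences of 3.74 (SE 0.43, adjusted p = 2.14e-06) and 2.03 (SE 0.58, adjusted p = 0.0441). GRHL3 (2.71 and 2.31), HES2 (3.13 and 2.29) and SMARCA1 (-1.49 and -1.83) passed under each hairpin, and the differences between hairpins did not pass for them (-0.4, -0.84 and -0.33, adjusted p = 0.782, 0.325 and 0.406). GRIN2C, BMP6, LPAR3 and NRARP passed under hairpin A and not under hairpin B, and the hairpins differed, by -3.3 (SE 0.59, adjusted p = 0.000371), -2.77 (SE 0.51, adjusted p = 0.000601), -1.94 (SE 0.26, adjusted p = 6.72e-06) and -1.88 (SE 0.24, adjusted p = 2.24e-06). MYC had a line difference of -0.4 (SE 0.09, adjusted p = 0.00546) under hairpin B, and the hairpins differed by -0.62 (SE 0.09, adjusted p = 1.14e-05). For CHD1 the difference between hairpins was -0.01 (SE 0.14, adjusted p = 0.983).

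**Figure D5:**
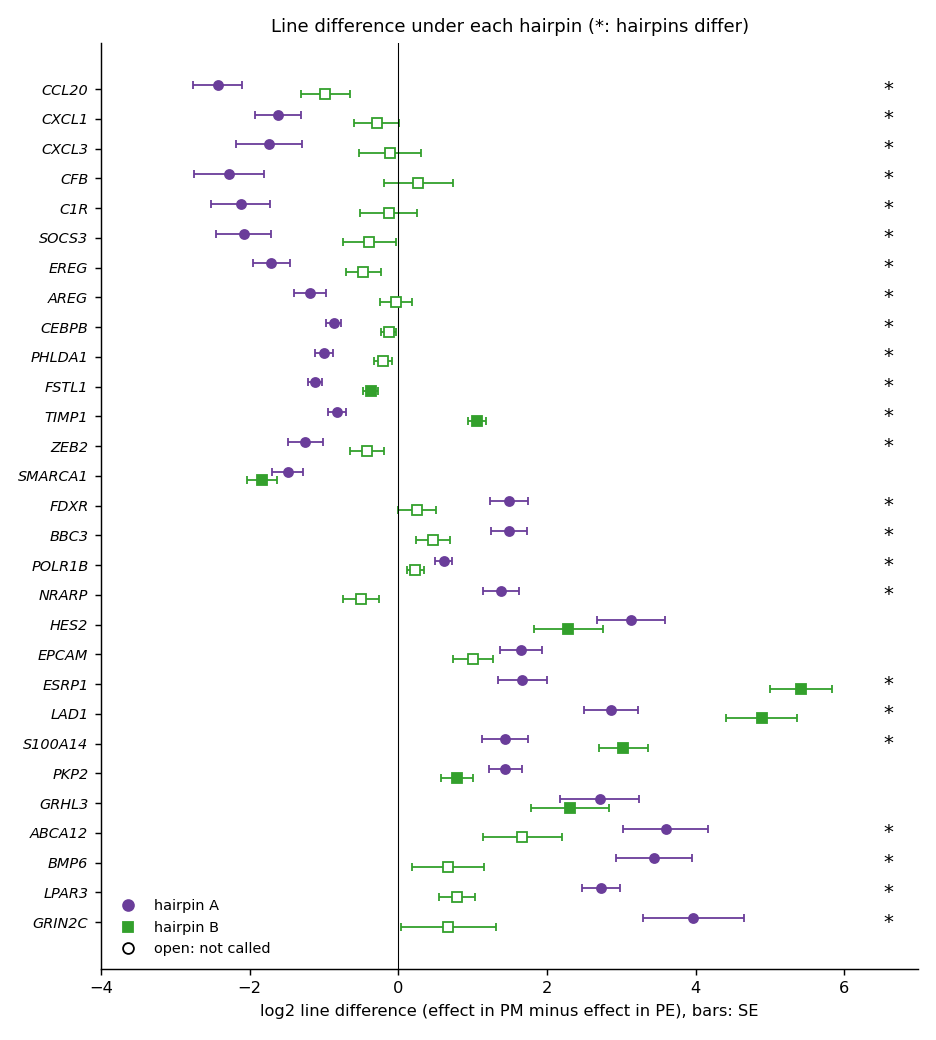
Line difference (x axis, log2 effect in PM minus log2 effect in PE, bars are SEs) of 29 genes under hairpin A (purple circles) and hairpin B (green squares), filled where called. Stars mark genes whose line difference differed between hairpins. CCL20, CFB, EREG and AREG are called under hairpin A alone, SMARCA1, HES2 and GRHL3 under both without a star, and ESRP1, LAD1 and S100A14 lie further right under hairpin B.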

How the data were processed

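Poly(A) RNA from 24 libraries of MCF10A cells was sequenced, per the labels' protocols. The authors deposited 1 table of raw read counts per gene (59251 genes, 17236 of them with no count), aligned with HISAT2 2.2.1 to GRCh38 (hg38) after Trim Galore 0.4.0 and FastQC and counted with featureCounts, per the submitters' processing notes. The library kit keeps strand, per the labels' protocols, but whether counting used it, and how multi-mapping reads were treated, is not stated there, so reads shared by near-identical copies or overlapping genes are uncertain. Groups came from the labels, and each column was matched to a sample by its name.

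The counts were fitted in R 4.3.3 with edgeR 4.0.16 (TMM scaling, filterByExpr, robust quasi-likelihood) on 6 groups of 4 libraries, which left 18 residual degrees of freedom and a median biological coefficient of variation of 19%. In all, 20820 genes were tested, and p-values were adjusted by Benjamini-Hochberg over all of them, with a threshold of 0.05. SEs were taken as the log2 change over the square root of F. Levels are CPM after TMM scaling and are compared within a gene, not per length. DESeq2 1.42.0 and limma-voom (limma 3.58.1) were alternatives. The steps were tested on simulated data. Gene names and promoters came from RefSeq GRCh38.p14, in which 57842 of the table's names are current symbols. Replicate libraries differed by more than sampling noise (chi-square over its degrees of freedom 5.73 to 33.1), so each counted once.

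The comparison, the 46 gene lists and the tests were chosen with earlier results of these data known. Named genes were CHD1 and MYC, and then called genes that code for proteins and reach a group mean of 5 CPM, namely the 12 largest differences each way, the 6 strongest called in both lines with opposite signs, and up to 4 per list. NFKBIA, NFKB1, IFITM3, CDKN1A, TRIAP1, ESRP2, CDH1, VIM, EGFR and JUNB, and the called members only listed by name, fall outside that rule and were chosen after their values were seen. Some genes within the rule are not reported here. Lists are described by counts, to be read beside the shares over all genes, and were not tested as sets.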

Additional observations from a re-analysis of the deposited data

Results flagged for a closer look

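The response to hairpin A differed between the lines for 1386 genes, and the line difference itself differed between hairpins for 1044 genes, both by edgeR at the threshold. Of 34 genes printed by library, 26 differed between hairpins (hairpin B minus hairpin A, log2). Higher under hairpin B were ESRP1 (3.74), CFB (2.54), LAD1 (2.03), C1R (1.99), TIMP1 (1.9), SOCS3 (1.69), CXCL3 (1.63), S100A14 (1.59), CCL20 (1.45), CXCL1 (1.33), EREG (1.24), AREG (1.17), ZEB2 (0.83), PHLDA1 (0.79), FSTL1 (0.75) and CEBPB (0.74). Lower under hairpin B were GRIN2C (-3.3), BMP6 (-2.77), LPAR3 (-1.94), ABCA12 (-1.93), NRARP (-1.88), FDXR (-1.24), BBC3 (-1.02), SLC27A2 (-1.02), MYC (-0.62) and POLR1B (-0.38). The hairpins share no libraries other than the GFP libraries, which cancel in this difference. CHD1 itself did not pass in it (-0.01, adjusted p = 0.983).

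Within groups of 4, 8 of 136 groups of gene values held a library far from the other 3. The genes share the same libraries, so these groups are not independent. How often chance alone would give such a share was not tested. MYC had 249 CPM in PE with GFP replicate 1, against 283 to 285 in the others. C1R had 66.4 CPM in PE with hairpin A replicate 4, against 103 to 106. CEBPB had 168 CPM in PE with hairpin A replicate 2, against 148 to 151. BBC3 had 18.7 CPM in PM with hairpin A replicate 3, against 13.3 to 14. AREG had 230 CPM in PM with hairpin A replicate 4, against 155 to 164. In PM with GFP, SMARCA1 had 2.3 CPM in replicate 4 against 3.37 to 3.39, HES2 0.458 CPM in replicate 3 against 1.1 to 1.19, and SLC27A2 12.2 CPM in replicate 4 against 17.2 to 18.1. Of 16 groups of library measures 1 did, the share of mitochondrial ribosomal RNA, at 0.439% in PE with GFP replicate 4 against 0.272 to 0.286% in the others. Calls of these genes in the line difference kept under every alternative run, MYC apart, which is not called.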

How the results depend on the processing

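The 1386 genes of the line difference became 1484 by library size alone, 1398 with DESeq2 size factors, 1777 by the DESeq2 Wald test, 1311 by limma-voom, 1632 without a filter, 1589 at 5 CPM or more, 1379 in a fit of 16 libraries and 1426 without PE with GFP replicate 1 and PM with hairpin A replicate 4. A call that also needs a 2-fold change left 366 genes for the line difference of hairpin A, 1130 and 720 for hairpin A in PM and in PE, 274 for the line difference of hairpin B and 358 for hairpin B minus hairpin A. Without a filter the line difference of hairpin B had 829 genes. As single libraries were left out, the counts ran from 1022 (without PE with hairpin A replicate 3) to 1455 for the line difference of hairpin A, 4995 to 6061 in PM, 3464 to 4376 in PE, 419 to 570 for hairpin B and 814 to 1213 for hairpin B minus hairpin A, CHD1 from -0.15 to -0.05, and MYC from 0.2 to 0.28.

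MYC passed the threshold at 0.25 (DESeq2 size factors), 0.28 (library sizes alone), 0.26 (DESeq2 Wald test) and 0.26 (5 CPM or more). It also passed at 0.27 without PE with GFP replicate 1, at 0.28 without PM with hairpin A replicate 4 and at 0.3 without both. Of 133 other named genes, 86 kept their call under all alternatives, 47 lost it under at least 1, and 0 reversed. With the replicate number as a block, 2184, 1003 and 1753 genes were called in the line differences of hairpin A, hairpin B and their difference, and the block shared 1379 of the 1386. For hairpin B the block gave 481 higher and 522 lower, against 306 and 204 without it. Among same-numbered libraries 24 correlations of deviations ran from -0.01 to 0.08 (median 0.04, against -0.01 for other numbers). None passed 0.1, the level set for pairing, so the numbers were not used to pair libraries. This level, taken over all genes, cannot decide pairing for single genes. CXCL1, CXCL2 and CXCL3, picked after their values were seen, were lowest in replicate 4 of each of the 4 groups, and AREG was highest there. As a hint from the data, 13 of 16 libraries correlated best with their own number, and the column names index libraries in runs by replicate number. The cause of these shifts was not tested. PE with GFP replicate 1 is the shallowest library, at 4.14 M counts, and without it 1372 genes were called.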

Other observations

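Genes that do not code for proteins were also called, and these were chosen after their values were seen. Among the 1386 genes 44 were long non-coding RNAs, 22 higher and 22 lower in PM. LINC02015 averaged 6.99 ± 2.3 and 37.3 ± 5.06 CPM in PM with hairpin A and with GFP, and 60.1 ± 7.42 and 102 ± 15.7 CPM in PE with hairpin A and with GFP (SD, n = 4 each). That gene's line difference was -1.67 (SE 0.24, adjusted p = 0.00015). MIR100HG, the host of microRNAs of the let-7 and miR-100 families, and NORAD, which binds Pumilio proteins, were lower in PM, with -1 (SE 0.21, adjusted p = 0.00231) and -0.47 (SE 0.1, adjusted p = 0.00177). FAR2P1, a transcribed relative of FAR2, was higher, with 7.91 ± 2.04 and 3.02 ± 0.909 CPM in PM with hairpin A and with GFP, and 0.337 ± 0.187 and 1.85 ± 1.36 CPM in PE with hairpin A and with GFP. The line difference of FAR2P1 was 3.98 (SE 0.53, adjusted p = 6.88e-06), and reads shared with near-identical copies are uncertain.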
